A study of Homo sapiens with 10 samples.

Results

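Gene expression after 6 h with HGF was compared with that after 1 h in MDA-MB-435 cells, a human line labelled as melanoma. The comparison takes 4 of the 10 Affymetrix hgu133a arrays of the series, chosen by their titles, of which 2 were made from cells after 1 h with HGF and 2 from cells after 6 h. The other 6 arrays are 2 each of untreated cells, of cells 24 h into HGF treatment and of cells transduced with integrin beta4 (ITGB4), and they entered the estimate of the spread but not the differences. Both compared groups are of the same line in standard culture and both received HGF, at a dose that the labels do not give. The labels give the untreated cells no harvest time, so time in culture and time with HGF cannot be told apart. The paper describes the 2 arrays of a group as biological duplicates.

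HGF is the ligand of MET, a receptor tyrosine kinase that signals through RAS and ERK and through PI3K and AKT, and in culture it makes epithelial colonies come apart. Growth factors induce a wave of immediate-early transcription regulators from factors already present in the cell. These and the kinases then act on later genes, among them inhibitors of ERK signalling, cyclins and the genes of protein and ribosome synthesis. A direct comparison of 6 with 1 h asks which transcripts differ between the early and the later phase, whatever their level before HGF.

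The values were made by the authors with RMA and are logarithms to base 2, so that a difference of 1 is a 2-fold change. Array medians lay between 6.81 and 6.88 over the 10 arrays. Of 22283 probe sets, 10176 were kept, those whose second-highest value over the 10 arrays was at least 7.3. They stand for 6390 of the 11963 genes on the array, which are called measured below, and where a gene had several kept probe sets the brightest on average represents it. The melanocyte lineage markers bear out the label of the line, since 17 of 22 on the array (77.3%) passed the filter, with medians of 10.31 and 10.07 on the 1 h arrays and 10.23 and 10.08 on the 6 h arrays. Of the markers of other cell types, 4 of 22 epithelial, 4 of 19 fibroblast, 2 of 11 endothelial and 0 of 16 blood cell genes passed it. MET read 8.81 and 8.64 on the 1 h arrays and 8.94 and 8.72 on the 6 h arrays, a difference of 0.11 (standard error 0.20, adjusted p = 0.736). HGF itself read 6.38 to 6.65 on these arrays and did not pass the filter.

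At 6 h, 1208 probe sets were higher (11.9% of those kept) and 651 lower (6.4%) than at 1 h at an adjusted p under 0.05 by limma, 18.3% in all. The higher ones were 65% of the calls, and 54.8% after median centring and 54.1% after a further quantile normalization. By representative probe set these were 747 genes higher (11.7% of genes) and 473 lower (7.4%). The median difference was 0.75 among the probe sets called higher and -0.54 among those called lower, and a size of at least 1 was reached by 262 and 33 of them. Over all kept probe sets the median was -0.02, and 90% of the differences lay between -0.49 and 0.81. Both 6 h arrays lay on the same side of both 1 h arrays for each of the 1859 called probe sets, as they did, above or below, in 32.5% and 33.9% of all kept. In an exact two-sided permutation test of a single gene, the smallest p that 2 arrays a group allow is 0.333, so the calls rest on the spread that limma borrowed from all probe sets and all 10 arrays.

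**Figure D1:**
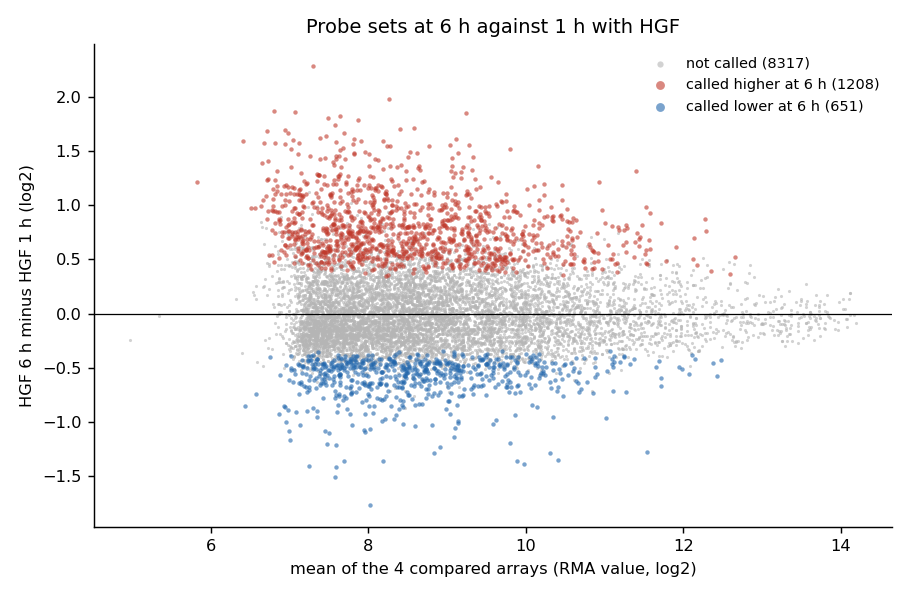
Each point is a kept probe set, with the mean of the 4 compared arrays on the horizontal axis (RMA value, log2) and the log2 difference of the 6 h from the 1 h mean on the vertical axis. The 1208 probe sets called higher (red) reach further from 0 than the 651 called lower (blue), and 262 against 33 of them differ by at least 1.

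The 1 h arrays differed more from each other than the 6 h arrays did, with a root mean square SD of 0.196 against 0.127. HGF 1 h replicate 1 was the lower of the 1 h arrays for 67.1% of the probe sets called higher and for 20.1% of those called lower, against 46.6% of all kept. The number of calls varied with the array left out. Without HGF 1 h replicate 1 there were 258 higher and 62 lower, with HGF 6 h replicate 1 left out there were 265 and 106, and with HGF 6 h replicate 2 left out 159 and 42. Without HGF 1 h replicate 2 there were 1055 and 735. Counts for a list without an array are given below in the order HGF 1 h replicate 1, HGF 1 h replicate 2, HGF 6 h replicate 1 and HGF 6 h replicate 2. The lists were written with earlier results of these data known. Their shares therefore describe the lists and are not independent support for them. Called whichever of the 4 compared arrays was left out were 119 probe sets higher and 32 lower, or 67 and 28 genes. The 3′ minus 5′ difference of the control probe sets, a measure of RNA quality, was for ACTB -0.27 and -0.42 at 1 h and -0.34 and -0.36 at 6 h, and for GAPDH -0.10 and -0.10 at 1 h and -0.21 and -0.01 at 6 h.

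The untreated and 24 h means of the called probe sets were set beside their 1 h and 6 h means. Nearer is judged by the midpoint between the 1 h and 6 h means, which cuts a continuous position and does not define separate classes. These means are given as a description, with no test, since the probe sets were chosen on the 1 h and 6 h values. Of the 1208 probe sets called higher, the untreated mean lay nearer the 6 h mean in 700 (57.9%), at or above it in 219 of these, and nearer the 1 h mean in 508 (42.1%). Of the 651 called lower, the untreated mean lay nearer the 1 h mean in 390 (59.9%) and nearer the 6 h mean in 261 (40.1%). The 24 h mean lay nearer the 1 h mean in 911 of the probe sets called higher (75.4%) and 583 of those called lower (89.6%).

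**Figure D2:**
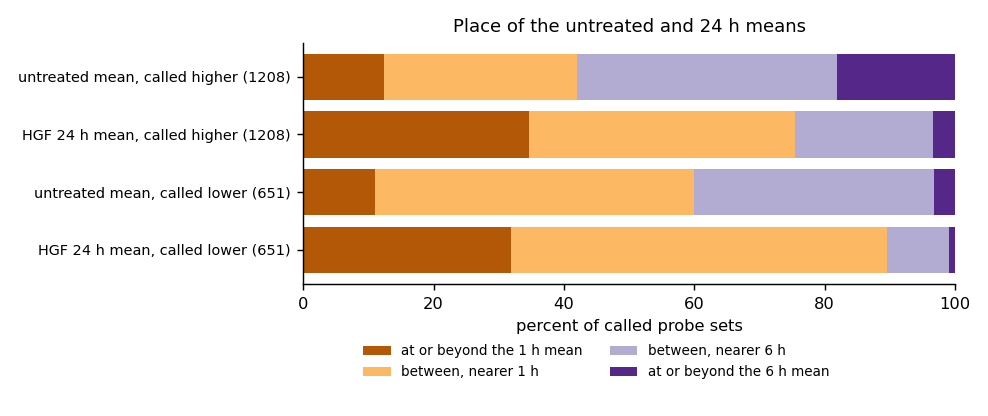
Bars give the percent of the probe sets called higher (1208) or lower (651) at 6 h whose untreated or 24 h mean lies at or beyond the 1 h mean, between and nearer 1 h, between and nearer 6 h, or at or beyond the 6 h mean. The untreated means of the probe sets called higher divide into 508 nearer 1 h and 700 nearer 6 h, while 24 h means lie mostly on the side of 1 h.

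The 20 largest increases held regulators of growth, division and transcription. HMGA2, a chromatin protein of embryonic and tumour cells, read 5.53 and 6.21 on the 1 h arrays and 7.71 and 7.76 on the 6 h arrays, replicate 1 named before replicate 2 here and below. It rose by 1.87 (standard error 0.26, adjusted p = 0.0034), with an untreated mean of 6.63. CCND1, the cyclin D1 that carries growth factor signals into the cell cycle, read 6.79 and 6.39 at 1 h and 8.55 and 8.24 at 6 h, against 7.04 in untreated cells. It rose by 1.80 (standard error 0.37, adjusted p = 0.0113) and was called on both of its kept probe sets. In both genes the 6 h arrays lay above all untreated and 24 h arrays. BCL2A1, an inhibitor of apoptosis, read 7.00 and 7.05 at 1 h and 8.54 and 8.64 at 6 h and had the smallest adjusted p of the 20, with a rise of 1.56 (standard error 0.11, adjusted p = 0.000313). Its untreated mean of 7.89 lay nearer the 6 h mean. CXCL8, the chemokine interleukin-8, read 5.91 and 5.84 at 1 h and 7.53 and 7.59 at 6 h, with 6.14 in untreated cells, and rose by 1.69 (standard error 0.21, adjusted p = 0.00231). Others among the 20 were the kinase MAP4K5 (1.86), the RNA polymerase III subunit POLR3G (1.74), the translation initiation factor subunit EIF3J (1.61), the splicing factor SFPQ (1.56) and the hyaluronan-degrading protein CEMIP (1.58). The untreated mean lay nearer 6 h in MAP4K5 (7.37) and POLR3G (7.92) and nearer 1 h in EIF3J (8.80), SFPQ (8.82) and CEMIP (7.08). Of the 20, HMGA2 and CXCL8 reached 7.3 on the 6 h arrays alone, and CCND1 and CEMIP there and on ITGB4 replicate 1. These genes passed the filter through the 6 h arrays, so their calls and their place in list counts depend on that group. The filter was not set again when an array was left out. With either 6 h array left out, HMGA2 and CXCL8 would not have passed it. Their held calls and list counts, here and below, therefore rest on a filter that used the array left out. HMGA2, BCL2A1, CXCL8, MAP4K5 and CEMIP held their call whichever array was left out, and the other called genes just named had a highest adjusted p of 0.0532 to 0.0754.

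**Figure D3:**
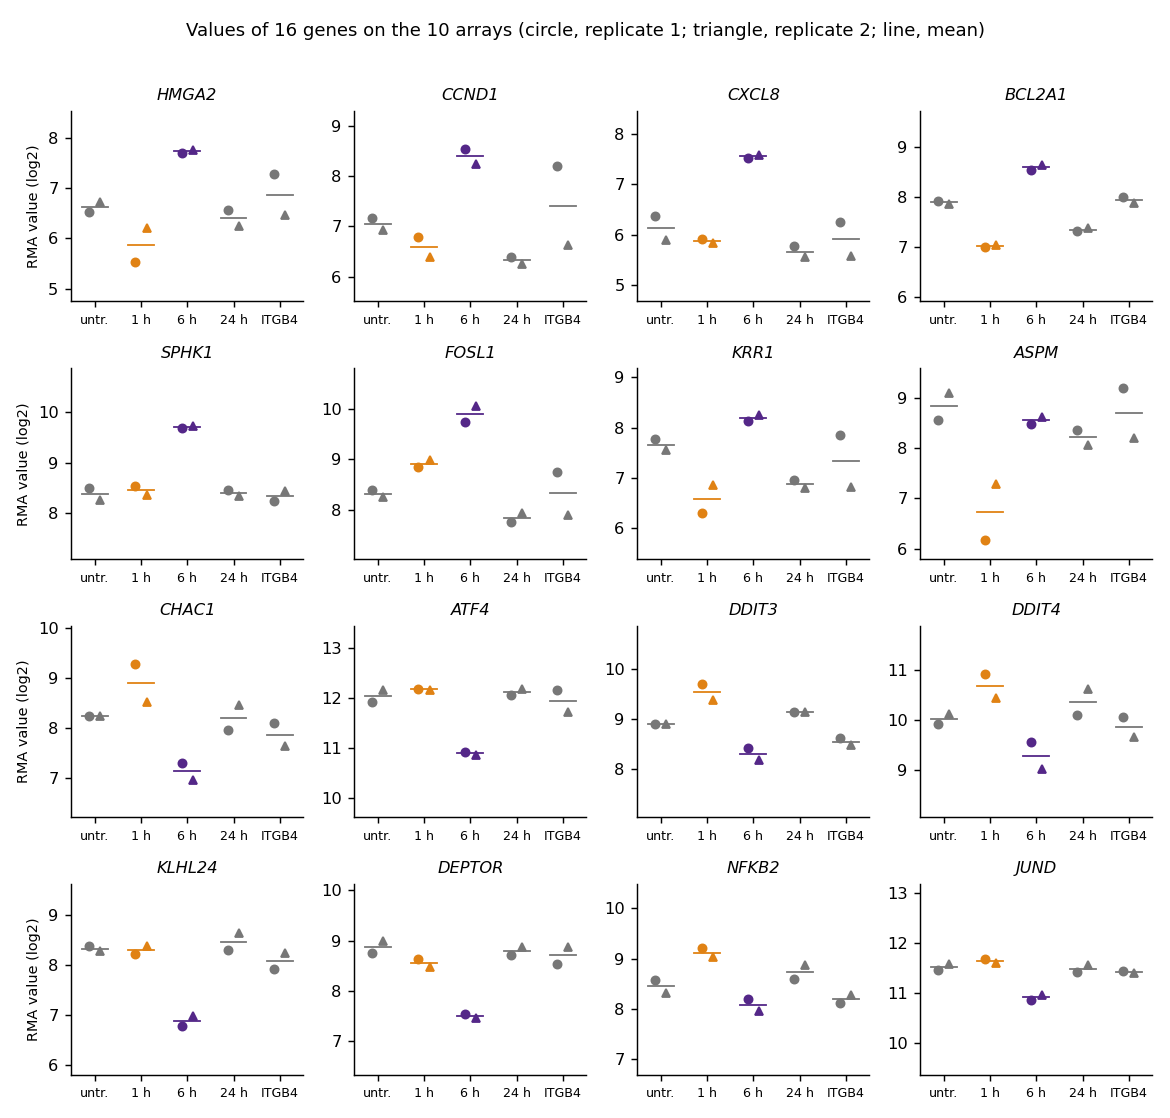
Each panel shows the RMA value (log2) of a gene's representative probe set on the 10 arrays by group, with circles for replicate 1, triangles for replicate 2 and a line for the mean, over a range of the same width in each panel. In the upper 8 genes both 6 h arrays lie above both 1 h arrays, ASPM having its untreated arrays near 6 h and SPHK1 near 1 h. In the lower 8 both 6 h arrays lie below both 1 h arrays.

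The 20 largest decreases held several genes of the integrated stress response, by which cells short of amino acids or with unfolded proteins slow translation and make the transcription factor ATF4. Of 23 measured genes of that response, 11 were lower at 6 h (47.8%, against 7.4% of all genes) and 0 higher (1 at an unadjusted p under 0.05), and the list's median difference was -0.50, against -0.03 over all genes, and in 7 of the 11 the untreated mean lay nearer the 1 h mean. ATF4 read 12.19 and 12.16 at 1 h and 10.93 and 10.87 at 6 h, against 12.04 in untreated cells and 12.13 after 24 h. The decrease was significant (difference -1.28, standard error 0.15, adjusted p = 0.00225). Only the 6 h arrays were low in this gene, among the 10. CHAC1, an enzyme that degrades glutathione and a target of the response, read 9.28 and 8.52 at 1 h and 7.3 and 6.97 at 6 h and fell by 1.77 (standard error 0.25, adjusted p = 0.00352), the largest decrease of all called genes. Its untreated mean of 8.24 lay between. DDIT3, the transcription factor CHOP, read 9.70 and 9.37 at 1 h and 8.41 and 8.19 at 6 h, with 8.90 in untreated cells, and fell by 1.23 (standard error 0.14, adjusted p = 0.00187). The pseudokinase TRIB3 (-1.36), which restrains ATF4 and AKT, the stress-induced chromatin protein NUPR1 (-1.29), the mTORC1 inhibitor DDIT4 (-1.38) and the transcription factor ATF3 (-1.06) were lower as well. Leaving out HGF 1 h replicate 1, 1 h replicate 2, 6 h replicate 1 and 6 h replicate 2 in turn gave 6, 12, 8 and 5 genes of the list as lower. ATF4, CHAC1, DDIT3 and NUPR1 held their call whichever array was left out, and the other called genes just named had a highest adjusted p of 0.0508 to 0.0727.

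Genes of amino acid supply, which ATF4 is known to drive, were lower in part. Of 17 measured genes of serine synthesis and amino acid transport, 4 were lower (23.5%, against 7.4% of all genes) and 1 higher (5.88%, against 11.7%), with a median of -0.26. CTH, which makes cysteine, fell by 1.22 (8.6 and 7.79 at 1 h, 7.34 and 6.62 at 6 h), PHGDH, the entry enzyme of serine synthesis, by 0.63, the transaminase GOT1 by 0.60 and the proline enzyme PYCR1 by 0.43. The call of CTH was lost when HGF 1 h replicate 1 or HGF 6 h replicate 2 was left out, with an adjusted p of up to 0.143. Of 17 cytosolic aminoacyl-tRNA synthetase genes, which charge tRNA with amino acids, 3 were lower (17.6%, against 7.4%) and 2 higher (11.8%, against 11.7%). AARS1 (-0.85), SARS1 (-0.64) and CARS1 (-0.55) were lower, while AIMP1 (0.81), a scaffold of the synthetase complex, and TARS1 (0.48) were higher. Of 19 enzymes of polyamine, methionine and one-carbon metabolism, 2 were higher (10.5%, against 11.7%) and 3 lower (15.8%, against 7.4%). The lower ones were the mitochondrial folate enzymes MTHFD2 (-0.71) and SHMT2 (-0.50) and AHCYL1 (-0.38). Of 25 chaperones and regulators of the unfolded protein response of the endoplasmic reticulum, 2 were lower (8%, near the 7.4% of all genes) and 0 higher (1 before adjustment). HERPUD1, a factor of the degradation of endoplasmic reticulum proteins, read 10.76 and 10.37 at 1 h and 9.19 and 9.22 at 6 h and fell by 1.36 (standard error 0.18, adjusted p = 0.00234), and OS9 fell by 0.39. The median of that list was -0.03, equal to that of all genes. Without HGF 1 h replicate 1, 1 h replicate 2, 6 h replicate 1 and 6 h replicate 2, the amino acid list had 0, 3, 1 and 0 genes lower, and the chaperone list 1, 4, 1 and 1. The synthetase list had 0, 1, 0 and 0 genes higher and 0, 4, 0 and 0 lower, and the one-carbon list had 0, 2, 0 and 0 genes higher and 0, 2, 1 and 0 lower, each of the 4 arrays being left out in turn. HERPUD1 held its call whichever array was left out, and the other called genes just named had a highest adjusted p of 0.0639 to 0.227.

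A motif search in promoters set these lists against all genes. RefSeq sequences of 250 bases before to 50 after the start (GRCh38.p14) were matched by symbol to 5356 of the 6390 genes. The composite C/EBP and ATF site, searched as TGATGNAA on both strands, was in 3 of 18 promoters of the stress response list (16.7%) against 84 of the genes tested (1.57%) and 3.67% of all 27305 promoters of the table. Among the members called lower it was in 2 of 9 (22.2%), ATF3 and CHAC1, and among those not called in 1 of 9 (11.1%). The bases before the start of both are printed because these genes fell by over 1, with the match in capitals, 191 bases before the start in ATF3 (chr1:212565157-212565406, plus strand) and 209 in CHAC1 (chr15:40953221-40953470, plus strand).
ATF3: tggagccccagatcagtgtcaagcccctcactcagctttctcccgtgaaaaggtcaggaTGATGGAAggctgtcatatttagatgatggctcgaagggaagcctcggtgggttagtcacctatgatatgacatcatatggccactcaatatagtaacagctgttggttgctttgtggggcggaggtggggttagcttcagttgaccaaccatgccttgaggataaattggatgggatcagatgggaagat
CHAC1: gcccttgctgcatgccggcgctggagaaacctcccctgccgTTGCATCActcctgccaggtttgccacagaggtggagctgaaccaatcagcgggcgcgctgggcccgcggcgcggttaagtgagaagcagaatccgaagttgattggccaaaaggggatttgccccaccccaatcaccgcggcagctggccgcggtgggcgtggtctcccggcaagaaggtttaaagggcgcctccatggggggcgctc
The match in CHAC1 is on the opposite strand. A match is a description of these letters and not a site of binding, and the 2 genes are too few to compare called with uncalled members. In the serine and amino acid list the composite site was in 3 of 15 promoters (20%), and in 2 of 11 of those not called (18.2%). The AP-1 site, searched as TGANTCA, was also in 3 of 18 promoters of the stress response list (16.7%), against 4.18% of the genes tested.

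Some genes that restrain growth or run autophagy were also lower at 6 h. Of 43 measured genes of the mTOR pathway and autophagy, 10 were lower (23.3%, against 7.4% of all genes) and 2 higher (4.65%, against 11.7%), with a median of -0.24. DEPTOR, an inhibitor bound to mTOR, read 8.63 and 8.48 at 1 h and 7.53 and 7.45 at 6 h and fell by 1.07 (standard error 0.15, adjusted p = 0.00337), while its untreated arrays had a mean of 8.88. ATG2A, which transfers lipid to growing autophagosomes, read 10.64 and 10.14 at 1 h and 9.17 and 9.23 at 6 h and fell by 1.19 (standard error 0.16). GABARAPL1 and WIPI2, of autophagosome formation, each fell by 0.64, whereas the mTORC1 scaffold subunit LAMTOR3 rose by 1.10 and ATG5 by 0.64. Of 19 targets of FOXO factors and other genes of growth restraint, 7 were lower (36.8%, against 7.4%) and 0 higher (1 before adjustment), with a median of -0.31. KLHL24, an adaptor of a ubiquitin ligase, read 8.21 and 8.38 at 1 h and 6.78 and 6.98 at 6 h and fell by 1.42 (standard error 0.16, adjusted p = 0.00187), but its other kept probe set did not pass the test, with a difference of 0.04. YPEL5 fell by 1.14 and HBP1, a repressor of cell cycle genes, by 0.97. In 6 of these 7 genes the untreated mean lay nearer the 1 h mean. MNT (-0.92) and MXI1 (-0.50), which compete with MYC for its partner MAX, were the 2 of 8 members of the MYC network that were called. Both were lower (25%, against 7.4% of all genes), and 0 members were higher (0%, against 11.7%). MXI1 lost its call without the untreated arrays in the spread. MYC itself, named after its values were seen, read 10.58 and 10.22 at 1 h and 10.04 and 10.01 at 6 h and was not called (difference -0.38, adjusted p = 0.11). Of 48 lysosomal genes 7 were lower (14.6%, against 7.4%) and 2 higher (4.17%, against 11.7%), among them the lower sphingomyelinase SMPD1 (-0.77), the protease CTSF (-0.73) and GRN (-0.72), the precursor of the granulins. Without each of the 4 arrays in turn, the autophagy list had 2, 9, 3 and 2 genes lower, the FOXO list had 4, 6, 4 and 3 genes lower, the MYC network list had 1, 2, 2 and 1 genes lower, and the lysosomal list had 0, 9, 2 and 0 genes lower. DEPTOR, ATG2A, LAMTOR3, KLHL24, YPEL5, HBP1 and MNT held their call whichever array was left out, and the other called genes just named had a highest adjusted p of 0.062 to 0.247.

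The immediate-early regulators, which growth factors induce within minutes, were called lower more often than higher. Of 25 measured, 5 were lower (20%, against 7.4% of all genes), 1 was higher (4%, against 11.7%) and 19 were not called, with a median of -0.19. The 6 h arrays differed in this, with list medians from the 1 h mean of 0.04 on replicate 1 and -0.29 on replicate 2. FOSL1, an AP-1 subunit that ERK signalling induces late and stabilizes, was the one that rose, from 8.84 and 8.98 to 9.74 and 10.07, by 1.00 (standard error 0.23, adjusted p = 0.016), with an untreated mean of 8.32. JUND, the AP-1 subunit of resting cells, was called lower on each of its 3 kept probe sets and fell by 0.72 on the representative, from 11.67 and 11.60 to 10.87 and 10.96, below its untreated mean of 11.52. The nuclear receptor NR4A1 fell by 0.74, from 9.05 and 9.22 to 8.27 and 8.51, and KLF2 by 0.49, which brought both near their untreated means of 8.48 and 7.32. MAFF fell by 0.97, and ATF3 was the fifth. Of 17 genes of ERK feedback and ETS output, 3 were higher (17.6%, against 11.7%) and 0 lower (2 before adjustment), with a median of 0.13. SPHK1, which makes sphingosine 1-phosphate, read 8.54 and 8.35 at 1 h and 9.69 and 9.72 at 6 h and rose by 1.26 (standard error 0.13, adjusted p = 0.00187), while the untreated and 24 h means were 8.37 and 8.40. DUSP4 (0.95) and DUSP5 (0.71), phosphatases that inactivate ERK, rose too, and in all 3 the untreated mean lay nearer the 1 h mean. DUSP6, named after its values were seen, had a difference of 0.92 and an adjusted p of 0.0501. Of 12 NF-kB subunits and targets, 3 were higher (25%, against 11.7%) and 2 lower (16.7%, against 7.4%). The subunits NFKB2 and RELB fell by 1.04 and 0.61, NFKB2 from 9.21 and 9.03 to 8.20 and 7.96. The targets CXCL8, BCL2A1 and BIRC2 (0.83) rose. BIRC2 lost its call with a further quantile normalization and without the untreated arrays in the spread, among other alternatives. Of 20 genes of the HGF receptor and its adaptors, 4 were higher (20%) and 1 lower (5%), with a median of 0.00, the regulatory subunit PIK3R1 (0.77), HRAS (0.58), the phosphatase PTPN11 (0.56), the kinase RPS6KA3 (0.53) and the adaptor SHC1 (-0.46). Without each of the 4 arrays in turn, the immediate-early list had 0, 2, 0 and 0 genes higher and 4, 7, 3 and 2 lower, the ERK feedback list had 1, 2, 2 and 1 genes higher, the NF-kB list had 2, 3, 2 and 2 genes higher and 1, 2, 1 and 1 lower, and the receptor list had 0, 2, 0 and 0 genes higher and 0, 1, 0 and 0 lower. JUND, SPHK1, NFKB2, CXCL8 and BCL2A1 held their call whichever array was left out, and the other called genes just named had a highest adjusted p of 0.0508 to 0.299.

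Factors of ribosome biogenesis, which process ribosomal RNA and assemble the subunits in the nucleolus, were often higher at 6 h. Of 57 measured, 24 were higher (42.1%, against 11.7% of all genes) and 0 lower (0 before adjustment), with a median difference of 0.41. KRR1, a small subunit processing factor, read 6.30 and 6.85 at 1 h and 8.13 and 8.26 at 6 h and rose by 1.62 (standard error 0.28, adjusted p = 0.0065). Its untreated mean of 7.66 lay nearer the 6 h mean. NOC3L rose by 1.14, from 7.37 and 7.66 to 8.64 and 8.67, and MRTO4, an assembly factor of the large subunit, by 1.03, from 9.21 and 9.16 to 10.03 and 10.39. The helicase DDX21 and NOL11 rose by 0.98 and 0.97. In 19 of the 24 the untreated mean lay nearer the 1 h mean, and in all 24 the 24 h mean did. On the arrays, the list's median from the 1 h mean was 0.02 and -0.02 at 1 h, 0.35 and 0.43 at 6 h and -0.33 and -0.10 at 24 h. The list had 3, 17, 7 and 1 genes higher, each of the 4 arrays being left out in turn. Of 21 subunits and factors of RNA polymerases I and III, which transcribe ribosomal and transfer RNA, 5 were higher (23.8%) and 0 lower (0 before adjustment). POLR3G read 6.37 and 7.04 at 1 h and 8.44 and 8.45 at 6 h, POLR3B rose by 1.11 and UBTF, the activator of ribosomal RNA genes, by 0.58. Of 51 cytosolic ribosomal proteins 0 were higher and 0 lower (0 and 3 before adjustment) by limma, with a median of -0.08 and the largest differences in RPL12 (-0.30) and RPL3 (-0.25). The polymerase list had 1, 2, 2 and 1 genes higher, each of the 4 arrays being left out in turn. None of the called genes just named held its call whichever array was left out, the highest adjusted p being 0.0532 to 0.24.

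The E-box CACGTG, which MYC and its relatives bind and which reads alike on both strands, was in 23 of 51 promoters of the ribosome biogenesis list (45.1%), against 11.4% of the genes tested and 7.43% of all promoters. It did not separate the members called higher, 9 of 20 (45%), from those not called, 14 of 31 (45.2%). UTP20, a small subunit factor picked after the values were seen, is printed because its E-box (capitals) lies before the start, beginning 10 bases from it (chr12:101279855-101280104, plus strand).
UTP20: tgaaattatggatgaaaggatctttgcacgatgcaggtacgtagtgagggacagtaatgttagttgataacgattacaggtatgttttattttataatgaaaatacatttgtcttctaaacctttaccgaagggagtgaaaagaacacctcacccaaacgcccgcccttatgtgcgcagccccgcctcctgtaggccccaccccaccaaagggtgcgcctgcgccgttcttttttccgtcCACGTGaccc
UTP20 rose by 0.90, from 7.39 and 7.70 to 8.39 and 8.5.

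Of 38 translation initiation and elongation factors, 6 were higher (15.8%, against 11.7% of all genes) and 2 lower (5.26%, against 7.4%), with a median of 0.10, so their shares were near those of all genes. EIF4E, which binds the cap of mRNA, read 8.71 and 8.76 at 1 h and 9.84 and 9.83 at 6 h and rose by 1.09 (standard error 0.17, adjusted p = 0.00424), and its inhibitor EIF4EBP1 fell by 0.45. EIF3J rose by 1.61, EIF1AX by 1.01, EIF4G2 by 0.99 and EIF5 by 0.82, the last on each of 4 kept probe sets. Of 25 enzymes of nucleotide synthesis 3 were higher (12%), CTPS1 (0.87), UMPS (0.67) and HPRT1 (0.50), and 0 lower (0 before adjustment). In polyamine and methionine metabolism the 2 that rose were MAT2A and AMD1. MAT2A, which makes S-adenosylmethionine, rose by 1.52 (standard error 0.32), from 8.94 and 9.15 to 10.62 and 10.50, and AMD1, of polyamine synthesis, rose by 0.72. The initiation and elongation list had 3, 6, 4 and 4 genes higher, and the nucleotide list had 0, 1, 1 and 0 genes higher, each of the 4 arrays being left out in turn. EIF4E, EIF1AX and EIF4G2 held their call whichever array was left out, and the other called genes just named had a highest adjusted p of 0.0532 to 0.31.

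Many genes of the families that process and export RNA were higher at 6 h. Of 21 serine/arginine-rich splicing factors and their partners, 11 were higher (52.4%, against 11.7% of all genes) and 2 lower (9.52%, against 7.4%), with a median of 0.67, the highest of all lists. SREK1 rose by 1.13, SRSF1 by 0.85, from 9.85 and 9.99 to 10.58 and 10.96, SRSF3 by 0.79, from 10.93 and 10.85 to 11.59 and 11.77, and the kinase SRPK1, which phosphorylates the family, by 0.80 on 1 of its 2 kept probe sets, the other having a difference of 0.24. SRSF1 and SRSF3 were called on each of 3 kept probe sets. CLK3, another kinase of the family, fell by 0.79 and SRSF4 by 0.45. Of 32 hnRNP and paraspeckle proteins, which coat nascent RNA, 11 were higher (34.4%, against 11.7%) and 0 lower (0 before adjustment), with a median of 0.44. SFPQ read 8.47 and 8.54 at 1 h and 9.92 and 10.21 at 6 h and rose by 1.56 (standard error 0.30, adjusted p = 0.0089) and was called on 2 of 3 kept probe sets, the third having a difference of 0.12. SYNCRIP rose by 1.15 on the representative of 5 called probe sets, and TARDBP by 0.98. Of 49 genes of the nuclear pore and of transport through it, 11 were higher (22.4%, against 11.7%) and 0 lower (0 before adjustment), with a median of 0.25. TPR, of the nuclear basket, rose by 1.45, from 7.51 and 8.06 to 9.28 and 9.18, the nucleoporin SEH1L by 1.10 and the exportin XPO1 by 0.93. In the hnRNP list 8 of the 11 had an untreated mean nearer 1 h, while the splicing and pore lists divided, with 5 of 11 and 6 of 11. Without each of the 4 arrays in turn, the splicing factor list had 1, 12, 2 and 0 genes higher, the hnRNP list had 1, 10, 4 and 0 genes higher, and the nuclear pore list had 2, 14, 4 and 1 genes higher. None of the called genes just named held its call whichever array was left out, the highest adjusted p being 0.0645 to 0.194.

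**Figure D4:**
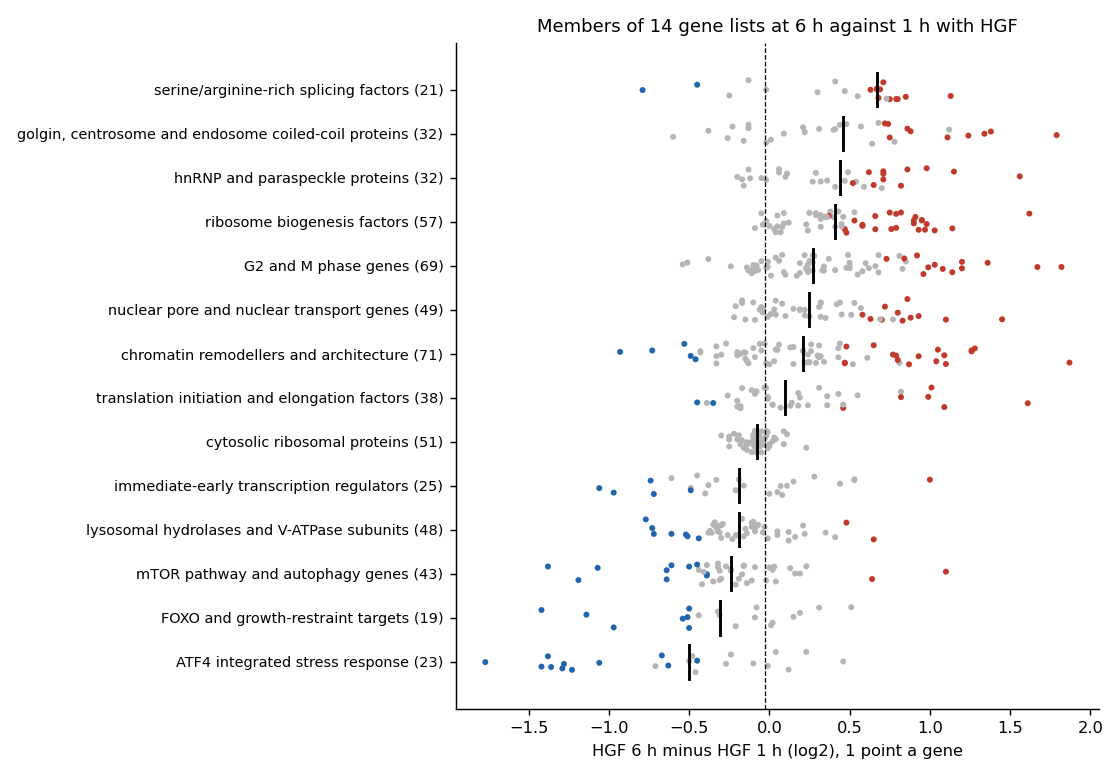
Each point is a gene of one of 14 lists (number measured in brackets), placed by its log2 difference of 6 h from 1 h and coloured red where called higher, blue where called lower and grey where not called. Black bars mark list medians, from 0.67 in the serine/arginine-rich splicing factors to -0.50 in the ATF4 list, and the broken line the median of all genes, -0.03.

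Some genes of mitosis were higher at 6 h than at 1 h, and in those called the untreated mean lay nearer 6 h. Of 69 measured genes that act in G2 and mitosis, 13 were higher (18.8%, against 11.7% of all genes) and 0 lower (1 before adjustment), with a median of 0.27. ASPM, of the spindle pole, read 6.18 and 7.28 at 1 h and 8.49 and 8.62 at 6 h and rose by 1.82 (standard error 0.36, adjusted p = 0.00942), with an untreated mean of 8.84. The kinesins CENPE, KIF11 and KIF14 rose by 1.67, 1.20 and 1.20, and SMC4, of condensin, by 1.36, from 9.10 and 9.85 to 10.90 and 10.78. In all 13 the untreated mean lay nearer the 6 h mean. On the arrays, the list's median from the 1 h mean was -0.14 and 0.14 at 1 h, 0.17 and 0.46 at 6 h and 0.00 and 0.39 at 24 h. It was -0.13 and 0.36 in untreated cells, so untreated replicate 1 lay at the level of HGF 1 h replicate 1. Replicate 1 was below replicate 2 in each of these groups. Fewer cells in mitosis and less RNA per cell cannot be told apart in bulk RNA. The list had 0, 22, 1 and 0 genes higher, each of the 4 arrays being left out in turn. Of 57 genes of S phase and DNA replication 6 were higher (10.5%, under the 11.7% of all genes) and 0 lower (1 before adjustment), with a median of 0.07. From the 1 h mean, that list's median was -0.10 on HGF 6 h replicate 1 and 0.17 on replicate 2. Among the higher ones were the cyclin CCNE2 (1.11), the deubiquitinase USP1 (1.06) and the replication factor MCM10 (1.05). That list had 0, 5, 0 and 0 genes higher, each of the 4 arrays being left out in turn. Of 18 G1 cyclins and CDK inhibitors 3 were higher (16.7%), CCND1, CCNE2 and SKP2 (1.15), a subunit of the ligase that degrades p27, and 0 lower (3 before adjustment). The G1 list had 1, 3, 1 and 1 genes higher, each of the 4 arrays being left out in turn. SKP2 held its call whichever array was left out, and the other called genes just named had a highest adjusted p of 0.0543 to 0.249.

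The CHR, a cell cycle element searched as TTTGAA on both strands, was in 41 of 61 promoters of the G2 and M list (67.2%), against 9.04% of the genes tested and 15.4% of all promoters. It was in 10 of 12 promoters of the members called higher (83.3%) and in 31 of 49 of those not called (63.3%), numbers that share the choice of the list and were not tested. The bases before the start of ASPM (chr1:197146670-197146919, minus strand) and KIF11 (chr10:92592880-92593129, plus strand) are printed with the CHR in capitals, beginning 113 and 28 bases before the start, because both are among the 5 largest increases of the list.
ASPM: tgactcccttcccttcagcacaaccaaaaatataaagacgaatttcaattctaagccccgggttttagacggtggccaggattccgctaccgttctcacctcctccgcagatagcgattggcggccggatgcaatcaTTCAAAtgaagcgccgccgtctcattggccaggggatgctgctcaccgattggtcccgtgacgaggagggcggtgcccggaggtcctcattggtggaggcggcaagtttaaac
KIF11: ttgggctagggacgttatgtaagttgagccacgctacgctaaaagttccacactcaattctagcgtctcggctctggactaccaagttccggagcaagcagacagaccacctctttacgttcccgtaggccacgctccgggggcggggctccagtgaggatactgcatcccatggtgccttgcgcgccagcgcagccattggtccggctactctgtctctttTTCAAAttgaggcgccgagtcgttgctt
In both the letters are on the opposite strand to the gene.

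Of 32 golgin, centrosome and endosome proteins with long coiled coils, 10 were higher (31.2%, against 11.7% of all genes) and 0 lower (1 before adjustment), with a median of 0.46, and in all 10 the untreated mean lay nearer 6 h. ZFYVE16, an endosomal protein, read 6.78 and 7.16 at 1 h and 8.73 and 8.79 at 6 h and rose by 1.79 (standard error 0.23, adjusted p = 0.00231), to near its untreated mean of 8.56. The golgin GOLGA4 rose by 1.34 and KTN1, the kinesin receptor kinectin, by 1.24, with untreated means of 9.21 and 10.05 beside 6 h means of 9.03 and 9.98. Of 71 chromatin remodellers and architectural proteins, 17 were higher (23.9%, against 11.7% of all genes) and 5 lower (7.04%, near the 7.4% of all genes), with a median of 0.21. Besides HMGA2 they were CHD1 (1.28), CHD9 (1.26), BAZ1A (1.26) and SUZ12 (1.10), and in 14 of the 17 the untreated mean lay nearer 6 h. SATB1, which organizes chromatin loops, fell by 0.93, from 7.46 and 7.20 to 6.53 and 6.28, and the histone demethylases KDM5B, KDM4B and KDM4A by 0.73, 0.53 and 0.49. Over all genes, those called higher had a median genomic span of 40.9 kb (GRCh38.p14) and those called lower 26.7 kb, against 29.2 kb over all genes tested. The coiled-coil list had 1, 13, 1 and 1 genes higher, and the chromatin list had 2, 22, 3 and 2 genes higher and 1, 5, 2 and 0 lower, each of the 4 arrays being left out in turn. ZFYVE16 and HMGA2 held their call whichever array was left out, and the other called genes just named had a highest adjusted p of 0.0514 to 0.255.

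**Figure D5:**
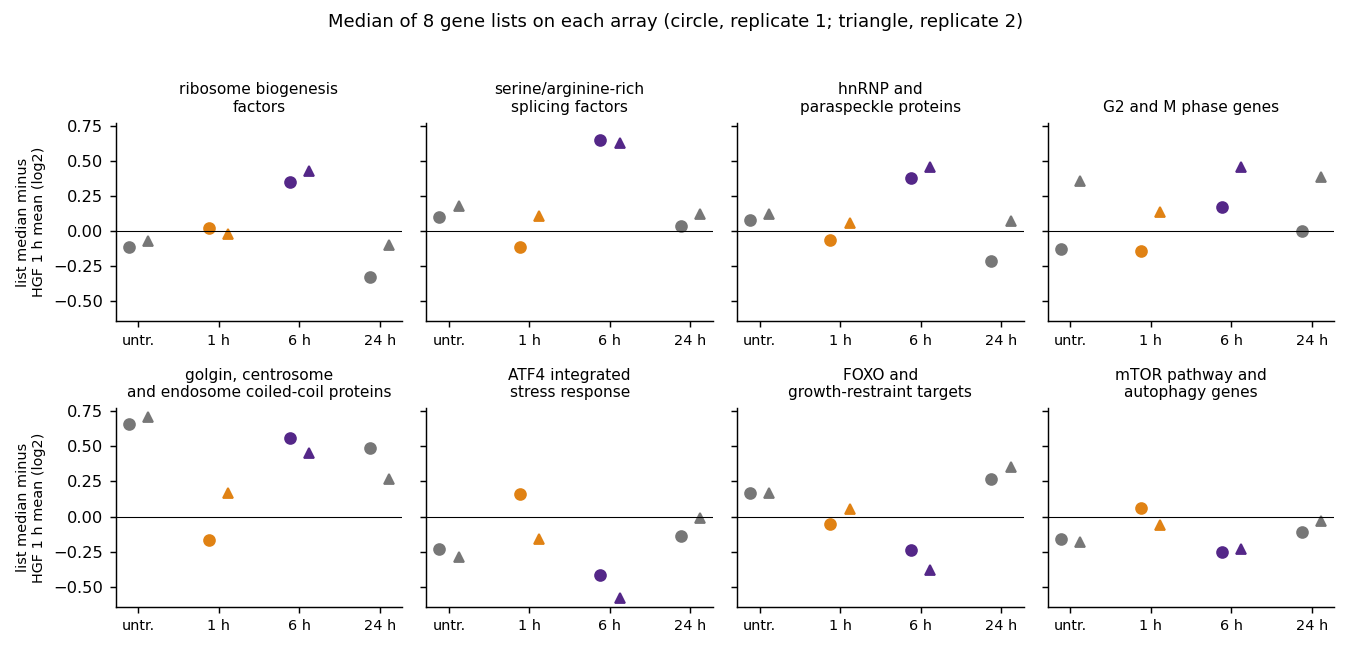
Each panel shows the median over the genes of a list of the difference from the gene's HGF 1 h mean (log2), on each untreated, 1 h, 6 h and 24 h array, with circles for replicate 1 and triangles for replicate 2. The ribosome biogenesis list is high on the 6 h arrays alone (0.35 and 0.43), the coiled-coil list is higher on the untreated arrays (0.66 and 0.71) than on the 6 h arrays (0.56 and 0.45), and the ATF4 list is lowest at 6 h (-0.42 and -0.58).

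In 6 lists of motility, the response for which HGF was named scatter factor, the shares called higher ran from 9.09% to 18.6%, against 11.7% of all genes. Of 59 genes of the actin cytoskeleton and focal adhesions, 11 were higher (18.6%, against 11.7% of all genes) and 3 lower (5.08%, against 7.4%), with a median of 0.04 that turned to -0.01 with median centring. CAPZA2, a subunit of the protein that caps actin filaments, read 8.24 and 8.64 at 1 h and 9.32 and 9.48 at 6 h and rose by 0.96 (standard error 0.16, adjusted p = 0.00537). The protease CAPN2 rose by 0.77, radixin (RDX) by 0.72 and ENAH, of filopodia, by 0.71. CTTN, the cortactin of invadopodia, fell by 0.54 on 1 of its 3 kept probe sets, the others having differences of 0.24 and -0.13, and was not called by the mean of the 3 (adjusted p = 0.413). WASF2 fell by 0.51 and the severing protein GSN by 0.49. Of 21 genes of the urokinase system and matrix proteases, SERPINB8 (1.19) and the sheddase ADAM10 (0.78) were higher and 0 lower (2 before adjustment). Of 16 integrin and hemidesmosome genes, ITGB3 (0.83) and DST (1.13, on 1 of 4 kept probe sets) were higher and 0 lower (0 before adjustment). Of 19 secreted growth factors and cytokines, CXCL8 and the semaphorin SEMA3C (1.17) were higher. SEMA3C read 6.38 and 6.31 at 1 h and 7.45 and 7.59 at 6 h, beside an untreated mean of 7.65, so the 1 h arrays were the low ones. Of 22 extracellular matrix components, SPP1 (0.60) and LAMB1 (0.55) were higher and PLOD1 (-0.53) lower. Of 11 regulators of epithelial-mesenchymal transition and cadherins, ZEB1 (0.84) and LEF1 (0.51) were higher, but LEF1 had an adjusted p of 0.0499 and lost its call in 17 of the alternatives, median centring and a further quantile normalization among them. With no filter, where the brightest of all a gene's probe sets represents it, the adjusted p of ITGB3 was 0.378. Another probe set may then stand for ITGB3. Without each of the 4 arrays in turn, the actin list had 2, 9, 3 and 0 genes higher and 0, 2, 0 and 0 lower, the protease list had 0, 2, 0 and 0 genes higher, the integrin list had 0, 2, 1 and 0 genes higher, the secreted factor list had 2, 2, 2 and 2 genes higher, the matrix list had 0, 4, 0 and 0 genes higher and 0, 3, 0 and 0 lower, and the transition list had 1, 1, 0 and 0 genes higher. CXCL8 and SEMA3C held their call whichever array was left out, and the other called genes just named had a highest adjusted p of 0.059 to 0.27.

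A difference is not exact in size where a compared group has a mean under 7.3, as is the case for HMGA2, CCND1, BCL2A1, CXCL8, MAP4K5, POLR3G, CEMIP, ASPM, LAMTOR3, KRR1, POLR3B, SREK1, SEH1L, CENPE, KIF11, KIF14, CCNE2, ZFYVE16, CHD1, CHD9, ENAH, ITGB3, DST, SEMA3C and ZEB1 at 1 h, and for CHAC1, CTH, KLHL24, KLF2, RELB and SATB1 at 6 h. Another kept probe set of the gene did not pass the test, with the differences given, in SHMT2 (-0.57), AHCYL1 (-0.26 and -0.25), OS9 (-0.36), WIPI2 (-0.33), ATG5 (0.49), SMPD1 (-0.40), NR4A1 (-0.17), PIK3R1 (0.25), PTPN11 (0.36 and 0.27), SHC1 (-0.08), TARDBP (0.60), SKP2 (0.79), KDM4B (-0.10 and -0.23), KDM4A (-0.20), DST (1.02, -0.03 and 0.32) and LEF1 (0.21), besides those already described.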

How the data were processed

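Gene expression was measured on Affymetrix hgu133a arrays in MDA-MB-435 cells, 2 arrays per group. The authors summarised probes to probe sets by RMA, which gives log2 values. Presence calls are not used here. In their place, 10176 of 22283 probe sets were kept, those other than 68 control probe sets whose second-highest value over the 10 arrays was at least 7.3. Symbols came from GEO's platform annotation, in which 19065 probe sets had 1 symbol, 1043 several and 2107 none, the controls aside. Groups were taken from the sample titles. Group means over all 10 arrays were fitted with limma 3.58.1 (R 4.3.3), the contrast was HGF 6 h minus HGF 1 h, and p-values were adjusted by Benjamini-Hochberg over the kept probe sets, with a call at an adjusted p under 0.05. The fit had 5 residual and 5.94 prior degrees of freedom and a median standard error of 0.14, and was tested on simulated data. The 2 arrays per group limit the precision. The genes named are MET and HGF, the 20 largest called increases and decreases, and up to 5 called members each way of every list, or the 2 largest differences in a list with none, and the others are said to be chosen after their values were seen. The members and lists were chosen with earlier results of these data known. Alternatives varied the filter, normalization, spread, pairing, threshold and arrays. Promoters came from the RefSeq table (GRCh38.p14), the first entry per symbol.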

Additional observations from a re-analysis of the deposited data

How the results depend on the processing

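The counts of 1208 probe sets higher and 651 lower (747 and 473 genes) became 786 and 458 with a filter at 8.5, 320 and 106 (190 and 86 genes) at an adjusted p under 0.01, and 262 and 33 (156 and 27 genes) at a difference of at least 1. Without the untreated arrays in the spread 954 were higher and 423 lower (309 genes lower). Leaving out single arrays gave 159 to 1444 higher and 42 to 738 lower, or 90 to 882 and 37 to 522 genes, with the lowest counts without HGF 6 h replicate 2. The share of calls that were higher, 65%, was 54.8% with median centring, 54.1% with a further quantile normalization, 75.1% at an adjusted p under 0.01, 88.8% at a difference of at least 1 and 58.9% to 80.6% when single arrays were left out. With the replicate number as a block, 1417 were higher and 831 lower over all 10 arrays, and 1853 and 1033 over the 4 compared arrays (1126 genes higher). The labels do not say that the numbers pair the samples, and deviations of same-numbered arrays correlated at 0.14 between HGF 1 h and HGF 6 h and at -0.14 to 0.46 over all pairs of groups, so the numbers were not taken to pair the arrays. The other alternatives, which were no filter, a filter on the 4 compared arrays, cyclic loess, the spread of the 4 arrays, a trended robust prior and, chosen after seeing the data, a spread without the HGF 24 h arrays, gave 1195 to 1453 higher and 609 to 715 lower. Of the 211 called genes that the naming rule gave, 22 lost their call with no filter, 7 with median centring, 12 with a further quantile normalization, 15 with the spread of the 4 arrays, 36 without the untreated arrays, 8 with the mean of a gene's probe sets, 132 at an adjusted p under 0.01, and 156, 37, 134 and 165 without HGF 1 h replicate 1, 1 h replicate 2, 6 h replicate 1 and 6 h replicate 2. None turned direction in these. The cause of these shifts was not tested.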

Other observations

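Among chaperones and enzymes outside the groups above, single genes were called. Of 27 heat shock proteins and chaperonins 5 were higher (18.5%, against 11.7% of all genes) and 1 lower (3.7%, against 7.4%) at 6 h, with a median difference of 0.19. CHORDC1, an HSP90 partner, rose by 1.20, from 6.70 and 7.21 to 8.28 and 8.03, and the chaperonin subunits CCT6A, CCT8 and CCT2 by 0.94, 0.66 and 0.50, while HSPA1L fell by 0.56. Of 39 proteasome genes 4 were higher (10.3%) and 3 lower (7.69%), near the shares of all genes. PSMC6, an ATPase of the cap, rose by 1.37 (8.43 and 8.34 to 9.97 and 9.52), and the 3 lower ones were PSMB8 (-0.40), PSMB9 (-0.46) and PSME1 (-0.49), which form the immunoproteasome and its activator and are induced by interferon. PSMB8 and PSMB9, with IFITM2 (-0.53), were also the 3 of 29 interferon-induced genes called lower (10.3%, against 7.4% of all genes). Of the 29, 0 were higher (2 before adjustment). Of 29 genes of cholesterol and fatty acid synthesis 7 were higher (24.1%, against 11.7%) and 2 lower (6.9%, against 7.4%), with a median of 0.02. The elongase ELOVL6 rose by 1.05 and the sterol enzymes SC5D, HMGCS1 and MSMO1 by 1.00, 0.88 and 0.67, while SREBF2, which drives sterol synthesis genes, fell by 0.41 and LSS by 0.53. Without HGF 1 h replicate 1, 1 h replicate 2, 6 h replicate 1 and 6 h replicate 2, the heat shock list had 0, 8, 2 and 0 genes higher, the proteasome list 1, 4, 1 and 1 and the cholesterol list 1, 7, 2 and 2, and the proteasome list had 0, 3, 0 and 0 genes lower, the interferon list 0, 6, 0 and 0 and the cholesterol list 0, 2, 0 and 0. PSMC6 and ELOVL6 held their call whichever array was left out. SREBF2 and LSS were each called on 1 of 2 kept probe sets, the other having a difference of -0.38 and -0.41.

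In the mitochondrial lists, 2 of 63 respiratory chain genes were higher (3.17%, against 11.7% of all genes) and 2 lower (3.17%, against 7.4%), with a median of -0.08. Cytochrome c (CYCS) read 10.93 and 10.80 at 1 h and 11.72 and 11.64 at 6 h and NDUFA5, of complex I, rose by 0.99, and both held their call whichever array was left out. Of 45 mitochondrial ribosomal proteins 5 were higher, led by MRPL39 (0.79), and 0 lower (2 before adjustment), and without the same arrays 3, 2, 1 and 0 were higher. Of 36 genes of glycolysis and the hypoxia response 3 were higher and 2 lower, and without the same arrays 2, 2, 0 and 2 were higher and 0, 4, 1 and 0 lower. The peptide adrenomedullin (ADM) rose by 1.26, from 9.15 and 8.72 to 10.45 and 9.94, HIF1A, the hypoxia-inducible factor, by 0.88 and PFKFB3, a regulator of glycolysis, by 0.61. Of 11 circadian clock genes NPAS2 (0.66) and CLOCK (0.54) were higher and DBP (-1.51, from 8.62 and 8.04 to 7.21 and 6.43) and CRY2 (-0.54) lower, and without the same arrays 1, 2, 1 and 0 were higher and 1, 1, 1 and 0 lower, so that each of these calls was lost without at least 1 array. Of 23 apoptosis genes 4 were higher and 1 lower, with CASP9 falling by 0.69 and BCL2L2, an inhibitor of apoptosis, rising by 0.64, and without the same arrays 2, 3, 2 and 2 were higher and 0, 3, 1 and 0 lower. BAMBI, a decoy receptor of TGF-beta signalling, fell by 0.73, from 11.34 and 11.10 to 10.46 and 10.52, and held its call whichever array was left out. Of 13 p53 targets XPC and DDB2, of DNA repair, fell by 0.66 and 0.55 and TRIAP1 rose by 0.42, and without the same arrays 0 were higher in each case and 1, 2, 0 and 1 lower. NDUFA5, CLOCK, DBP, CRY2, CHORDC1 and ELOVL6 had a group mean under 7.3, so these sizes are not exact. For the lists of glycolysis, apoptosis, p53 and cholesterol the sign of the median turned under another normalization. Over all genes, 11.7% were higher and 7.4% lower. Beside these, the shares were 11.1% and 0% for mitochondrial ribosomal proteins and 8.33% and 5.56% for glycolysis and hypoxia. They were 18.2% and 18.2% for the clock genes, 17.4% and 4.35% for apoptosis and 7.69% and 15.4% for p53 targets.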
